A study of Mus musculus with 16 samples.

Results

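The laminin chain and integrin chain genes were followed across 3 sorted populations of mouse thymic epithelial cells in 2 genotypes. The members were every gene entry whose symbol is that of a laminin alpha, beta or gamma chain or of an integrin alpha or beta chain. This gave 37 of the 23420 gene entries in the count table: 11 laminin chains, 18 integrin alpha chains and 8 integrin beta chains. RNA sequencing covered cortical cells (cTEC) and 2 kinds of medullary cells, labelled MHC II low (mTEClo) and MHC II high (mTEChi). Each population came from mice of the labelled genotypes psmb11 +/+ (WT) and psmb11 -/- (KO). Each cTEC group had 2 libraries and each mTEC group had 3, 16 libraries in all. All 6 groups carry the strain label C57BL/6-derived BAC, the tissue label Thymus and an age of 6 to 8 weeks. The sorting text is the same for every sample and speaks of 14 mice aged 7 days, whereas the design text speaks of 11 thymi, so the number of animals behind a library is unknown. That text gives CD45-negative, EpCAM+ cells, split by Ly51 and by binding of the lectin UEA1; it does not describe the MHC class II gate. Nothing in the labels says that libraries of a group came from separate animals, so p-values here measure the spread between these libraries, which may be technical.

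Laminins are trimers of an alpha, a beta and a gamma chain and are the main polymer-forming glycoproteins of basement membranes, the sheets on which epithelia rest. Integrins are receptors made of an alpha and a beta chain that hold cells to such matrices or to other cells and pass signals inward through adaptor proteins and kinases. In the thymus, epithelial cells form an open network around developing T cells as well as lying on basement membranes under the capsule and around vessels, and both matrix-binding and leukocyte integrins are known there.

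Total counts were 67810047 to 94959679 per cTEC library, 95777929 to 115251165 per mTEClo library and 64753610 to 146707262 per mTEChi library. In this report a level of 1 gene across libraries is in CPM, counts scaled to a fixed library total, with TMM scaling over all libraries, and 3 counts were worth at most 0.0430 CPM in any of them. Psmb11, the thymoproteasome subunit targeted in the KO, had 15214 and 12756 counts in cTEC WT and 157 and 0 in cTEC KO. Markers of cortical epithelium summed to 6632 to 7974 CPM in WT cTEC and at most 2563 CPM in any mTEC library. The 13 listed markers of medullary epithelium summed to 988 to 1014 CPM in WT cTEC. They summed to 3556 to 3874 CPM in WT mTEClo and 5309 to 5744 CPM in WT mTEChi. In each of these groups 12 of the 13 had a mean over 1 CPM, while Ccl21a, a medullary chemokine, was at 0 in every library. Libraries of a group differed most in cTEC, and there mainly in KO. The biological coefficient of variation, 1 value over both genotypes, was 0.652 within cTEC, 0.131 within mTEClo and 0.113 within mTEChi. Across 16059 genes, which are not independent, log2 CPM correlated at r = 0.951 between the cTEC KO libraries and at 0.990 between the cTEC WT libraries. Between mTEC libraries of a group r was 0.994 to 0.998. Tests that set cTEC against mTEC with edgeR's quasi-likelihood test share 1 estimate of the spread, so their calls are also given as the number that limma's voom, with a variance for each population, called at an adjusted p under 0.05.

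Ranked per transcript length, in the authors' RPKM, chains of epithelial laminin and their receptors were among the members at high levels. Among the laminin chains in WT cTEC, Lamb1 was at 107, Lamb3 at 94.3 and Lama3 at 45.2 RPKM (means of 2). Lama3 and Lamb3 encode the alpha3 and beta3 chains, known from the laminin of epithelial basement membranes. Itga6 was the highest integrin alpha chain gene in all 6 groups, with 88.7 RPKM in WT cTEC, 137 in WT mTEClo and 61.8 in WT mTEChi. Itgb1 and Itgb4 were the highest beta chain genes in all 6 groups. They stood at 99.3 and 91.5 RPKM in WT cTEC, 82.9 and 91.2 in WT mTEClo and 49.0 and 30.6 in WT mTEChi. The alpha6 chain pairs with beta4 in hemidesmosomes, the junctions that anchor keratin filaments to laminin, and with beta1 in other laminin receptors. At the low end, Itgad and Lamc3 were under 0.1 RPKM in every cTEC and mTEClo group mean. A mean of at least 5 CPM in at least 1 group was reached by 36 members; Itgax, at 0.763 to 5.05 CPM over all libraries, did not.

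**Figure D1:**
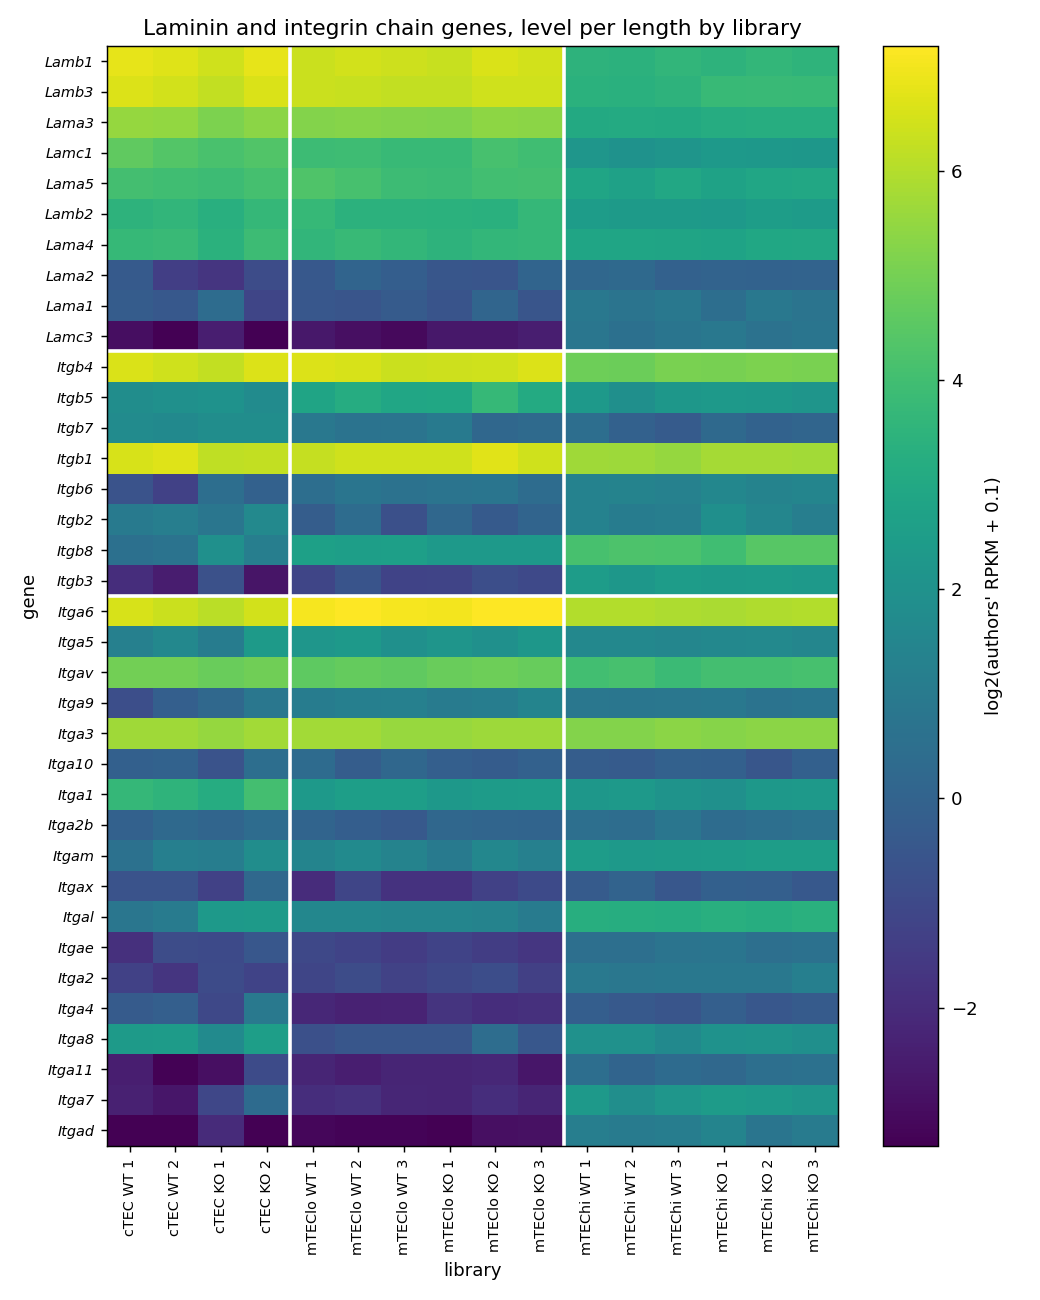
Level per length of 36 laminin and integrin chain genes in each of the 16 libraries, as log2 of the authors' RPKM plus 0.1, with genes in rows (laminins at the top, then integrin beta and alpha chains) and libraries in columns. Lamb1 and Lamb3 are bright in the cTEC and mTEClo columns and dim in the 6 mTEChi columns, whereas Itgb3, Itga7 and Itgad are dim outside mTEChi.

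Most laminin chain genes were far lower in mTEChi than in mTEClo. Of 11 laminin genes, 8 were lower and 2 were higher in WT mTEChi than in WT mTEClo, and the same counts were found in KO. Over all 19816 genes tested, 36.8% were called lower and 42.8% higher in WT, and 37.2% and 43.2% in KO. Their median difference on the log2 scale was -1.44 in WT and -1.27 in KO, beside 0.08 and 0.09 over all genes tested. All differences in this comparison are mTEChi over mTEClo, from edgeR's quasi-likelihood test at a threshold of 0.05 on p-values adjusted over every gene tested (Benjamini-Hochberg), with 3 libraries a group. In bulk RNA such as this, fewer cells of a type and less RNA per cell cannot be told apart.

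Lamb1 (chromosome 12, 31265294 to 31329639 in mm10) encodes the beta1 chain of most widespread laminins. Its level was 652, 695 and 642 CPM in the WT mTEClo libraries and 75.8, 74.9 and 83.2 CPM in the WT mTEChi libraries. In KO it was 596, 712 and 700 CPM in mTEClo and 73.6, 82.7 and 79.5 CPM in mTEChi. Every mTEChi library was low and every mTEClo library high, in both genotypes, with no overlap. The log2 difference was -3.09 (SE 0.08, adjusted p 8.8e-14) in WT and -3.09 (SE 0.08, adjusted p 8.55e-14) in KO, an 8.54-fold and an 8.49-fold lower level.

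The alpha3 and beta3 chain genes moved the same way but not by the same amount. Lamb3 (chromosome 1, 193301994 to 193343878) was at 450, 441 and 412 CPM in WT mTEClo and 50.9, 50.3 and 54.0 CPM in WT mTEChi, a log2 difference of -3.07 (SE 0.07, adjusted p 2.55e-14). Lama3 was at 537, 545 and 521 CPM in WT mTEClo and 102, 108 and 104 CPM in WT mTEChi, a log2 difference of -2.36 (SE 0.07, adjusted p 2.26e-13). Neither gene overlapped between the populations in either genotype. The KO differences were -2.77 for Lamb3 and -2.27 for Lama3, each with an SE of 0.07. The beta3 gene fell 8.43-fold and the alpha3 gene 5.13-fold in WT.

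Lamc1, Lama5, Lamb2 and Lama4, chains of vascular and general basement membranes, fell less than Lamb3 and Lama3 in WT. Lamc1, the common gamma1 chain, differed by -1.89 in WT and -1.84 in KO (SE 0.08 each). Lama5, the alpha5 chain, was at 218 to 304 CPM in WT mTEClo and 87.7 to 106 CPM in WT mTEChi and differed by -1.44 (SE 0.11). Lamb2 differed by -1.26 (SE 0.10) and Lama4, a chain known from vessel walls, by -0.99 (SE 0.08) in WT. Lama2, the alpha2 chain known from muscle, was the laminin gene without a call in either genotype, with 8.66 to 12.5 CPM in WT mTEClo and 10.3 to 13.0 CPM in WT mTEChi.

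The 2 laminin genes that were higher in mTEChi were minor ones by level. Lamc3, the gamma3 chain, was at 0.490, 0.244 and 0.131 CPM in WT mTEClo and 11.0, 9.32 and 10.9 CPM in WT mTEChi. The log2 difference was 5.18 (SE 0.30, adjusted p 3.44e-10) in WT and 4.32 (SE 0.28, adjusted p 1.09e-09) in KO. Lama1, the alpha1 chain of embryonic basement membranes, was at 7.44 to 8.98 CPM in WT mTEClo and 17.7 to 20.2 CPM in WT mTEChi, a difference of 1.24 (SE 0.18). Both genes were high in all 6 mTEChi libraries and low in all 6 mTEClo libraries. Lamc3 shares 5.6% of its exon bases with an antisense gene in GENCODE M21, and reads of the unstranded library kit cannot be assigned to either strand.

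The levels of fibroblast and pericyte markers also differed between the medullary populations. All 12 listed markers were in the table, with 4 higher and 6 lower in WT mTEChi, and their summed level was 932 to 952 CPM in WT mTEChi and 1419 to 1710 CPM in WT mTEClo. Acta2, smooth muscle actin, fell from a mean of 682 to 56.6 CPM, whereas Pdgfrb, a receptor of pericytes, rose from 5.88 to 63.3 CPM. Such cells also make laminins, and their part in the laminin result was not tested.

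Promoter sequence is shown for 3 members that differ between the medullary populations: Lamb1 and Lama5, lower in mTEChi, and Itgb8, higher there. Of the 37 members, 23 had an entry in the RefSeq promoter table for GRCm38.p6, with 26 promoters of 300 bases, 250 before and 50 after the start. The windows are chr12:31265043-31265342 on the plus strand for Lamb1, chr2:180225810-180226109 on the minus strand for Lama5 and chr12:119238227-119238526 on the minus strand for Itgb8. Each is written 5′ to 3′ on the gene's strand, and capitals mark matches on either strand to the GC box GGGCGG, the CCAAT box CCAAT, the AP-1 motif TGANTCA or the TATA box TATAAA.
Lamb1: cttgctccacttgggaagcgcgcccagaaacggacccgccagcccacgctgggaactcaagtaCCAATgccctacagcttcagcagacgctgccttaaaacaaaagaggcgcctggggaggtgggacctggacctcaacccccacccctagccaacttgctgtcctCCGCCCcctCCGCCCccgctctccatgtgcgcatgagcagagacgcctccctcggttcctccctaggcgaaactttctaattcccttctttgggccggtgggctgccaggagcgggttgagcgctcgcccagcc
Lama5: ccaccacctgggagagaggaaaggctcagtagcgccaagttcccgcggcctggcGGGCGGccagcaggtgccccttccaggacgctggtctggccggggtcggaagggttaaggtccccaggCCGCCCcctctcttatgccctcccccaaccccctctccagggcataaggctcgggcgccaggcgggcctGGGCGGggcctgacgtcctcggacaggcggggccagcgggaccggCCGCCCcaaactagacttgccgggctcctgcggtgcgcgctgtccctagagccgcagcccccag
Itgb8: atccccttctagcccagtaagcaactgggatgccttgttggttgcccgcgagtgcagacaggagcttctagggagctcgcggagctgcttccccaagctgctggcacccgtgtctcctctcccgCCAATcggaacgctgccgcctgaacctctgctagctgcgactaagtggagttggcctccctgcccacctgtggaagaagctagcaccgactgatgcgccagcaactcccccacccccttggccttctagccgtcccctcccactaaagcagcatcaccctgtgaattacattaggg
Lamb1 had GC boxes at -84 and -75 and a CCAAT box at -187 from the start, Lama5 had 4 GC boxes, and Itgb8 had a CCAAT box at -126. A GC box was in 12 of the 26 member promoters, beside 35.7% of all 32851 promoters in the table. A CCAAT box was in 4 of 26, beside 37.4%, an AP-1 motif in 3 of 26, beside 7.81%, and a TATA box in 0 of 26, beside 13.6%. These matches are descriptions of the letters in the windows and say nothing on whether a factor binds.

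The summed laminin level was much smaller in mTEChi. Summed over the 11 chain genes, the level per length was 358 ± 13.4 RPKM in WT mTEClo (SD, n = 3), 95.6 ± 2.71 in WT mTEChi (SD, n = 3) and 385 ± 18.9 in WT cTEC (SD, n = 2). The KO means were 370, 103 and 360 RPKM. Composition differed as well as amount, with no overlap between the WT medullary libraries for the Lama3 and Lamb2 shares. Lama3 made up 55.1% ± 1.87 of the alpha chain sum in WT mTEClo and 33.1% ± 1.21 in WT mTEChi (SD, n = 3 each). Lamb2 made up 6.57% ± 0.721 of the beta chain sum in WT mTEClo and 19.7% ± 1.15 in WT mTEChi. These shares are of RPKM, so they are shares of transcripts and not of assembled trimers.

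**Figure D2:**
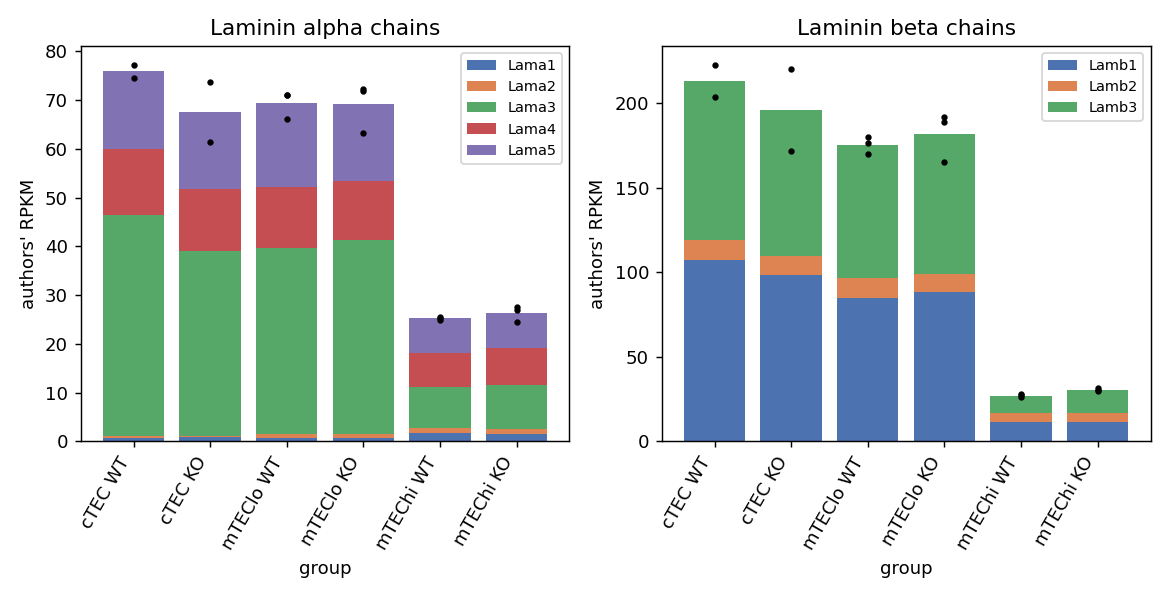
Stacked authors' RPKM of the laminin alpha and beta chain genes in each of the 6 groups; coloured parts are group means and dots are the sums of single libraries. Every mTEChi sum lies below every cTEC and mTEClo sum in both chain classes, and the Lama3 part of the alpha chains shrinks from 55.1% in WT mTEClo to 33.1% in WT mTEChi.

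Cortical cells had laminin levels near those of mTEClo and far above those of mTEChi. Against WT mTEChi, 8 of 11 laminin genes were higher in WT cTEC and 1, Lamc3, was lower, with a median log2 difference of 1.27 beside -0.24 over all genes. All 9 calls were also made by voom. Over all 37 members 16 were higher and 12 lower; of the 19990 genes tested 28.0% were called higher, 36.5% lower and 55.9% by both tools. In KO, 8 laminin genes were higher and 2, Lamc3 and Lama2, lower, of 15 members higher and 11 lower, beside 26.1% and 33.4% of genes, and 48.6% by both tools. Of those 26 calls in KO, voom made 24, without Lama2 and Itgae. Leaving out any 1 of the mTEChi KO libraries ended the KO calls of Lamc3 and Lama2 (adjusted p 0.0511 to 0.0645). Scaling by DESeq2's size factors moved the median over all genes from -0.24 to -0.42 in WT. It turned the direction of none of the 28 members called in WT, and members without a call were not checked.

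The largest cortical excess was again in the beta chain genes Lamb1 and Lamb3. Lamb1 was at 904 and 760 CPM in WT cTEC, 10.9-fold above WT mTEChi, a log2 difference of 3.45 (SE 0.10, adjusted p 4.3e-08). Lamb3 was at 559 and 466 CPM, a difference of 3.34 (SE 0.09, adjusted p 2.98e-08), and Lama3 at 662 and 589 CPM, a difference of 2.62 (SE 0.08, adjusted p 4.13e-08). Lamc1 was at 258 and 204 CPM and differed by 2.57 (SE 0.09). All of these cTEC libraries lay above all mTEChi libraries. Lama4, Lama5 and Lamb2 differed by 1.12 to 1.36 in WT. Lamc3 had 18 and 0 counts in the WT cTEC libraries and differed by -6.66 in the edgeR fit (SE 1.69, adjusted p 0.00775).

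Against mTEClo, laminin differences in cTEC were small. In WT 4 laminin genes were called higher and 1 lower, and voom kept 1 of these 5, Lamc1. Lamc1 was at 258 and 204 CPM in cTEC and 152, 154 and 136 CPM in mTEClo, a log2 difference of 0.73 (SE 0.11, edgeR adjusted p 0.000965; voom adjusted p 0.00326). In KO the same gene differed by 0.40 (SE 0.11, edgeR adjusted p 0.0353; voom adjusted p 0.131), and without cTEC KO library 2 by 0.38 with an edgeR adjusted p of 0.0763. Over all members, 11 were higher and 7 lower in WT cTEC than in WT mTEClo, with 5 and 4 kept by voom, beside 13.1% and 14.4% of 17820 genes and 18.0% by both tools. In KO 8 were higher and 3 lower, with 6 and 1 kept by voom, beside 10.1% and 9.56% of genes and 10.3% by both tools. By edgeR, 9 of the 37 members were called in the same direction in both genotypes, beside 2142 of 17820 genes. Another 8 were called in WT alone, 1 in KO alone and 1 in opposite directions, beside 2710, 1307 and 52 genes. Leaving out 1 library at a time left 9 to 12 of the 18 WT calls standing as a count, and gave 19 in KO without cTEC KO library 1 and 7 without mTEClo KO library 3.

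Itga6, Itgb4, Itgb1 and Itga3, chains of laminin receptors, were also lower in mTEChi, whereas Itga7 was higher. Itga6 (chromosome 2, 71787083 to 71856758) was at 760, 816 and 738 CPM in WT mTEClo and 315, 315 and 304 CPM in WT mTEChi. The log2 difference was -1.31 (SE 0.07, adjusted p 2.63e-10) in WT and -1.33 (SE 0.07) in KO. Itgb4 (chromosome 11, 115974725 to 116008356) was at 831, 777 and 659 CPM in WT mTEClo and 216, 214 and 254 CPM in WT mTEChi, a difference of -1.73 (SE 0.10, adjusted p 2.32e-10). No library overlapped between these populations for either gene. Itgb1, the shared beta chain of many matrix receptors, differed by -0.92 (SE 0.08) in WT and -0.94 (SE 0.08) in KO. Itga3, which pairs with beta1 to bind epithelial laminin, fell by 0.55 on the log2 scale in WT and 0.44 in KO (SE 0.07 each), from 306 to 351 CPM down to 220 to 242 CPM in WT. In KO, Itgb4 differed by -1.59 (SE 0.10).

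In cTEC, Itga6 was lower than in mTEClo, whereas Itgb4 and Itga3 were not called. Itgb4 was at 814 and 682 CPM and Itga3 at 351 and 323 CPM in WT cTEC, both overlapping the WT mTEClo libraries. Itga6 was at 551 and 440 CPM in WT cTEC, below all WT mTEClo libraries and above all WT mTEChi libraries. Its difference from mTEClo was -0.56 in WT (SE 0.12, edgeR adjusted p 0.00536; voom adjusted p 0.0117) and -0.71 in KO (SE 0.12, edgeR adjusted p 0.00288; voom adjusted p 0.00331). Without WT cTEC library 2 the WT value was -0.44 with an edgeR adjusted p of 0.0655. Against WT mTEChi, Itgb4 was higher by 1.75, Itgb1 by 1.20, Itga6 by 0.71 and Itga3 by 0.59 on the log2 scale, and all were called by both tools.

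Itga7 differed in direction from those 4 chains. It encodes the alpha7 chain, a laminin receptor best known from muscle, and lies on chromosome 10 from 128933813 to 128958276. Its level was 0.832, 0.966 and 0.611 CPM in WT mTEClo and 23.2, 17.3 and 22.3 CPM in WT mTEChi. The difference was 4.70 (SE 0.19, adjusted p 6.06e-12) in WT and 5.15 (SE 0.20, adjusted p 2.53e-12) in KO, and every mTEChi library was above every mTEClo library. In WT cTEC it was at 0.459 and 0.283 CPM. Its RPKM in WT mTEChi, 4.34, was still well under the 61.8 of Itga6.

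**Figure D3:**
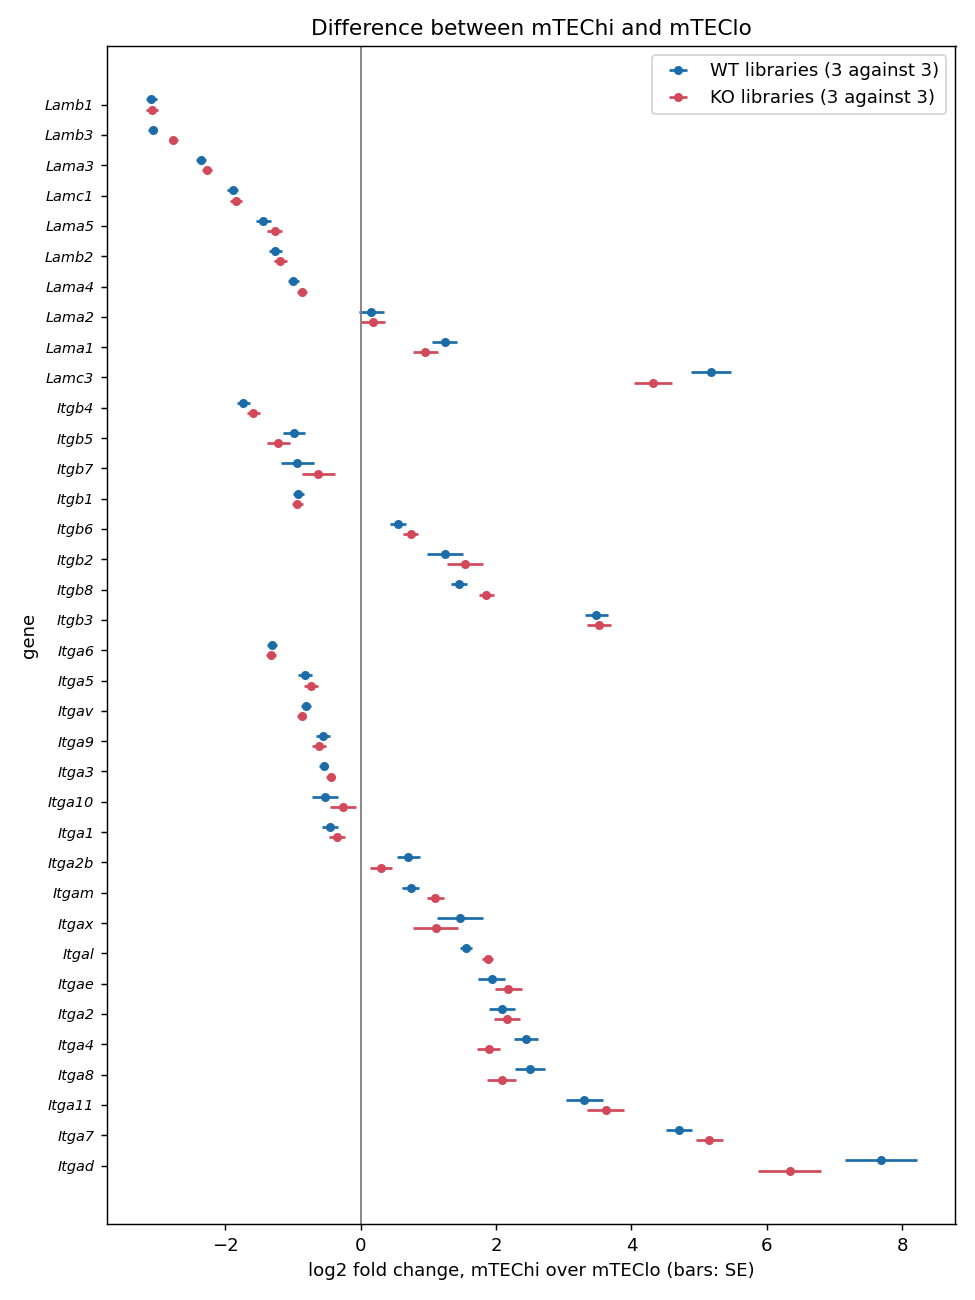
Log2 fold change of mTEChi over mTEClo for 36 members, separately in the WT and the KO libraries (3 against 3 each), with bars of 1 SE; genes are grouped as laminins, integrin beta and integrin alpha chains. The WT and KO points lie side by side for nearly all genes, from -3.09 for Lamb1 to 7.68 for Itgad in WT.

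Across the integrins the medullary comparison split by chain. Of 18 alpha chain genes, 11 were higher and 7 lower in WT mTEChi than in WT mTEClo, and 10 and 6 in KO, with a median log2 difference of 1.10 in both. Of 8 beta chain genes, 4 were higher and 4 lower in both genotypes. Counting laminins too, 17 members were higher and 19 lower in WT, and 16 and 18 in KO. On the higher side this was near the 42.8% and 43.2% of all genes, and on the lower side above the 36.8% and 37.2%. WT and KO libraries are separate, and 34 of the 37 members were called in the same direction in both genotypes with 0 in opposite directions, as were 14927 of 19816 genes tested. Itga10 and Itga2b were called in WT alone and Lama2 in neither. As a sum, integrin RPKM was 427 ± 18.8 in WT mTEClo and 271 ± 3.36 in WT mTEChi (SD, n = 3 each), and 401 ± 9.78 in WT cTEC (SD, n = 2), a smaller drop than for the laminins.

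Beta chains that pair with alphav showed opposite directions. The alphav chain pairs with beta1, beta3, beta5, beta6 and beta8; the beta6 and beta8 receptors are known for binding and activating latent TGF-beta, and the beta3 and beta5 receptors for binding vitronectin. Itgav itself was at 234, 252 and 237 CPM in WT mTEClo and 137, 152 and 125 CPM in WT mTEChi, a difference of -0.81 (SE 0.07) in WT and -0.87 (SE 0.07) in KO. Itgb5 also fell in mTEChi, by 0.98 on the log2 scale in WT (SE 0.17) and 1.22 in KO (SE 0.17). Itgb8, Itgb3 and Itgb6 rose.

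Itgb8 (chromosome 12, 119162803 to 119238276), whose promoter is printed above, was at 25.4, 23.7 and 23.4 CPM in WT mTEClo and 62.0, 69.1 and 68.6 CPM in WT mTEChi. In KO it was at 19.1, 19.6 and 20.0 CPM in mTEClo and 54.4, 76.3 and 81.1 CPM in mTEChi. The WT cTEC libraries were lowest, at 5.47 and 5.85 CPM, so the populations did not overlap in WT. The mTEChi difference from mTEClo was 1.45 (SE 0.11, adjusted p 1.23e-08) in WT and 1.86 (SE 0.12, adjusted p 7.5e-10) in KO. The WT cTEC difference from WT mTEClo was -2.01 (SE 0.23, edgeR adjusted p 0.000142; voom adjusted p 0.0222). In KO that difference was -0.59 (SE 0.22) and was not called by edgeR, with cTEC libraries at 16.1 and 8.28 CPM. Per length, Itgb8 made up 16.2% ± 0.921 of integrin beta chain RPKM in WT mTEChi and 3.12% ± 0.199 in WT mTEClo (SD, n = 3 each), while the Itgb4 share fell from 47.4% ± 3.84 to 27.1% ± 2.37.

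Itgb3 (chromosome 11, 104608000 to 104670471) was at 2.83, 4.47 and 2.56 CPM in WT mTEClo and 38.5, 32.5 and 39.4 CPM in WT mTEChi. It was 11.2-fold higher in mTEChi in WT (log2 difference 3.48, SE 0.17, adjusted p 5.38e-11) and 11.5-fold higher in KO. The cTEC libraries held 1.23 and 0.610 CPM in WT and 4.31 and 0.421 CPM in KO, so no library outside mTEChi reached 5 CPM. Itga2b, the platelet chain that pairs with beta3, was at 2.85 to 4.03 CPM in WT mTEClo and 5.03 to 6.58 CPM in WT mTEChi, a difference of 0.70 (SE 0.17); in KO it was 0.30 (SE 0.16) and not called. The erythroid and platelet markers, 10 of 12 in the table and 2 of them at 0 in every WT mTEChi library, summed to 39.6 to 40.2 CPM in WT mTEChi and 4.85 to 6.19 CPM in WT mTEClo. Their part in the Itgb3 and Itga2b results was not tested. Itgb6, an epithelial chain, was at 8.53 to 10.9 CPM in WT mTEClo and 14.3 to 14.7 CPM in WT mTEChi, a difference of 0.56 (SE 0.12). In WT cTEC it was at 3.78 and 1.92 CPM, a difference of -1.70 from mTEClo (SE 0.34, edgeR adjusted p 0.00446, voom adjusted p 0.0262). In KO it was at 9.20 and 5.17 CPM in cTEC and 8.22 to 10.0 CPM in mTEClo, which overlapped, and edgeR did not call it.

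**Figure D4:**
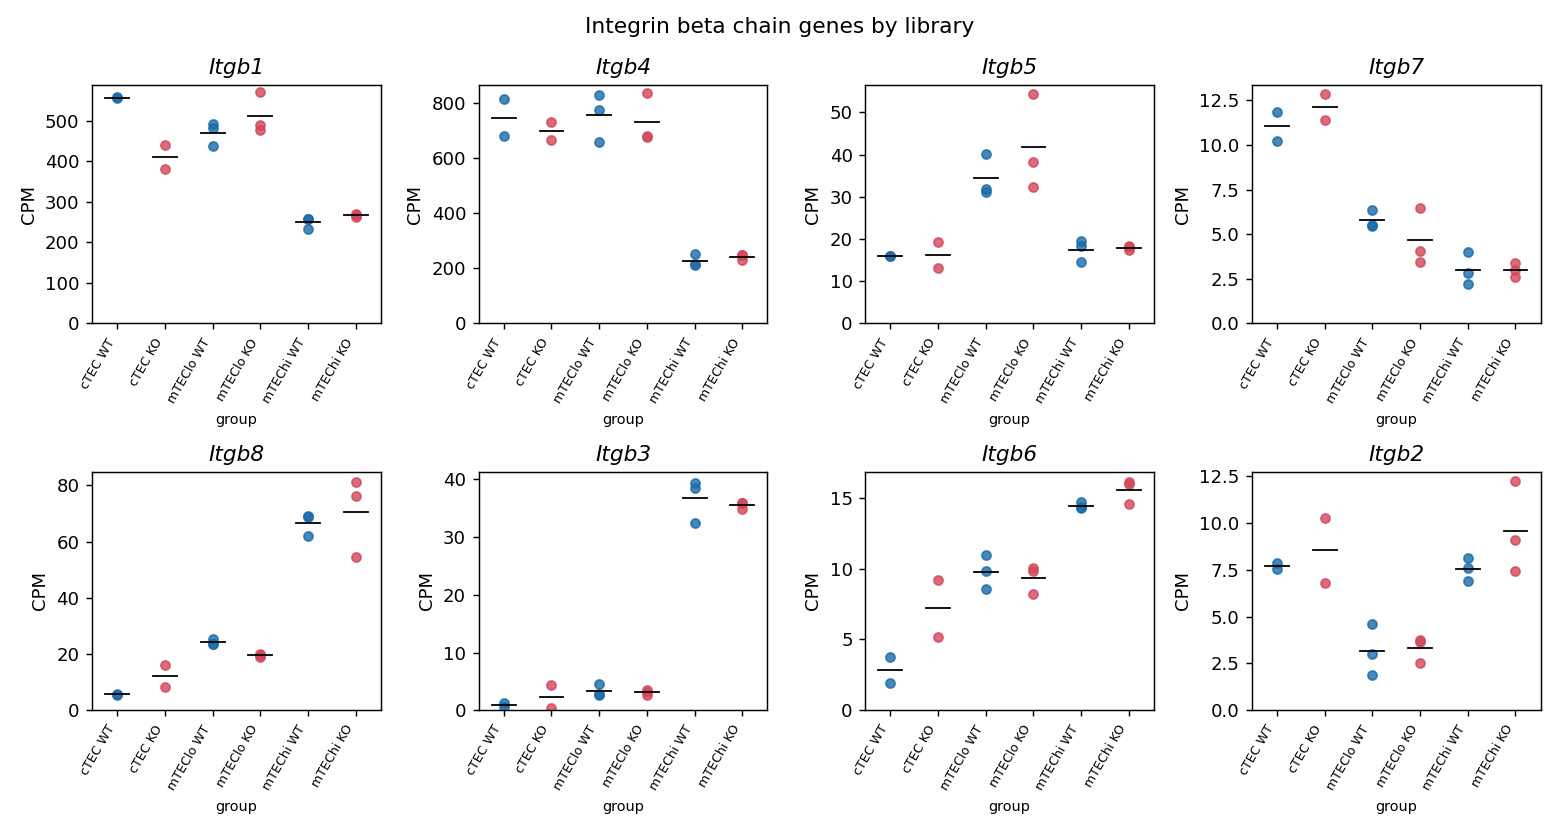
CPM of the 8 integrin beta chain genes in each library by group (blue WT, red KO), with a line at each group mean; every panel's axis starts at 0. Itgb1 and Itgb4 are lowest in mTEChi, Itgb8 and Itgb3 are highest there, and Itgb7 is highest in cTEC, with WT means of 11.0 against 5.77 and 3.02 CPM.

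Among collagen receptors, Itga1 was highest in cTEC, and Itga2 and Itga11 were highest in mTEChi. The alpha1, alpha2, alpha10 and alpha11 chains each pair with beta1 and bind collagens. Itga1 (chromosome 13, 114958081 to 115101964) was at 104 and 86.6 CPM in WT cTEC, 40.6, 47.5 and 46.2 CPM in WT mTEClo and 32.8, 35.9 and 29.6 CPM in WT mTEChi. It was higher in cTEC than in mTEClo by 1.17 in WT (SE 0.19, edgeR adjusted p 0.00141; voom adjusted p 0.00181) and 1.38 in KO (SE 0.19, edgeR adjusted p 0.00122; voom adjusted p 0.00152). None of the 3 WT groups overlapped. Itga2, which lies 26 kb from Itga1, took the other direction, with 1.76 to 2.43 CPM in WT mTEClo and 8.53 to 8.96 CPM in WT mTEChi (difference 2.09, SE 0.19). Itga11 was at 0.541 to 0.753 CPM in WT mTEClo and 5.48 to 7.42 CPM in WT mTEChi (difference 3.31, SE 0.27). Itga10, at 3.24 to 7.71 CPM over all libraries, was called lower in WT mTEChi (difference -0.53, SE 0.19, adjusted p 0.0189) although its groups overlapped, and without WT mTEClo library 1 it was not (-0.41, adjusted p 0.0899). For this gene 34.5% of the exon bases are shared with the gene model Gm42957.

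Itga8 and Itga4 were high in cTEC and in mTEChi and low in mTEClo. The alpha8 chain is a receptor for nephronectin and other RGD ligands, and the alpha4 chain binds VCAM-1 and fibronectin. Itga8 (chromosome 2, 12106660 to 12301920) was at 42.3 and 40.7 CPM in WT cTEC, 3.87, 4.83 and 4.81 CPM in WT mTEClo and 27.4, 27.3 and 22.0 CPM in WT mTEChi. It was 9.76-fold higher in cTEC than in mTEClo in WT (log2 difference 3.29, SE 0.33, edgeR adjusted p 6.06e-05; voom adjusted p 3.67e-07) and 5.71-fold higher in KO. Itga4 was at 9.83 and 10.1 CPM in WT cTEC, 1.72, 1.35 and 1.33 CPM in WT mTEClo and 9.12, 7.92 and 7.01 CPM in WT mTEChi. Its cTEC difference from mTEClo was 2.85 in WT (SE 0.50, edgeR adjusted p 0.00189; voom adjusted p 0.000163) and 2.74 in KO, and its mTEChi difference from mTEClo was 2.45 in WT (SE 0.18) and 1.89 in KO (SE 0.17). In each case the mTEClo libraries were the lowest of the WT libraries, with no overlap. Itga9, a chain that binds tenascin-C, was instead highest in mTEClo, at 4.73 and 7.41 CPM in WT cTEC, 20.2 to 21.9 CPM in WT mTEClo and 14.2 to 14.9 CPM in WT mTEChi; the cTEC difference from mTEClo was -1.71 (SE 0.25, edgeR adjusted p 0.000675; voom adjusted p 0.00307). In KO, Itga9 was at 11.2 and 14.2 CPM in cTEC and 18.3 to 24.7 CPM in mTEClo, and edgeR did not call this difference. Itga5, the fibronectin receptor chain, was at 22.2 to 29.9 CPM in WT mTEClo and 14.6 to 15.3 CPM in WT mTEChi, a difference of -0.82 (SE 0.10).

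The leukocyte integrin chain genes Itgal, Itgb2, Itgam, Itgax, Itgad and Itgae were higher in mTEChi than in mTEClo. Their means in WT mTEChi ran from 0.749 RPKM for Itgax to 9.18 RPKM for Itgal. Itgb2 is the shared beta chain of the alphaL, alphaM, alphaX and alphaD receptors, and Itgae pairs with Itgb7 to bind E-cadherin. Itgal (chromosome 7, 127296260 to 127335137), which with beta2 binds ICAM-1, was at 20.1, 20.2 and 18.7 CPM in WT mTEClo and 58.6, 58.4 and 56.9 CPM in WT mTEChi, a difference of 1.55 (SE 0.08, adjusted p 1.64e-10). Itgb2 was at 2.99, 4.63 and 1.87 CPM in WT mTEClo and 8.13, 6.89 and 7.58 CPM in WT mTEChi, a difference of 1.25 (SE 0.27). In WT cTEC Itgb2 was at 7.54 and 7.86 CPM, within the range of WT mTEChi and above WT mTEClo by 1.38 (SE 0.40, edgeR adjusted p 0.0273; voom adjusted p 0.0565). Itgax, at 2.84 and 3.04 CPM in WT cTEC and 2.88 to 4.26 CPM in WT mTEChi, also overlapped between these populations, whereas Itgal, Itgam and Itgae were lower in WT cTEC than in WT mTEChi. Per length Itgal exceeded its partner, at 9.18 against 2.20 RPKM in WT mTEChi. Itgam was higher by 0.74 (SE 0.12), Itgax by 1.47 (SE 0.34) and Itgae by 1.93 (SE 0.20) in WT mTEChi. Itgb7 was lower in mTEChi (difference -0.94, SE 0.24) and was highest in cTEC, at 11.9 and 10.2 CPM in WT. Its cTEC difference from mTEClo was 1.02 in WT (SE 0.27, edgeR adjusted p 0.0199; voom adjusted p 0.0314), and without WT cTEC library 1 it was 0.92 with an edgeR adjusted p of 0.114.

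Itgad had the steepest pattern of all members. It encodes the alphaD chain and lies on chromosome 7 from 128173946 to 128205434, 23.3 kb from Itgax, which lies 11.1 kb from Itgam. Its counts were 6, 2 and 4 in the WT mTEClo libraries and 906, 1264 and 661 in the WT mTEChi libraries, or 9.55, 8.92 and 9.47 CPM in the latter. In KO mTEChi it was at 11.5, 6.83 and 8.67 CPM. The difference was 7.68 (SE 0.53, adjusted p 2.98e-09) in WT and 6.34 (SE 0.47, adjusted p 5.71e-09) in KO. Both WT cTEC libraries were at 0, at least 558-fold lower than WT mTEChi against a floor of 3 counts over both libraries together. Itgad, Itgax and Itgam neighbour each other but differed in steepness, with Itgam at 15.8 to 20.0 CPM in WT mTEClo and 27.8 to 30.4 CPM in WT mTEChi. Itgad shares exon bases with 4 other GENCODE M21 genes and Itgam shares 70% of its exon bases with the gene model Gm49368; how the authors' annotation split such reads is not given in the sources used here.

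Markers of myeloid cells moved with the leukocyte integrins. Of the 16 dendritic cell and macrophage markers 15 were in the table, 13 were higher and 1 lower in WT mTEChi, and none was at 0 in every WT mTEChi library. They summed to 574 to 601 CPM in WT mTEChi and 122 to 125 CPM in WT mTEClo, and Lyz2, lysozyme, alone rose from a mean of 38.1 to 421 CPM. B cell markers summed to 45.1 to 46.9 CPM in WT mTEChi and 13.2 to 16.8 CPM in WT mTEClo, with 5 of 6 higher. Thymocyte markers summed to 104 to 177 CPM and 77.8 to 114 CPM, ranges that overlapped, and Ptprc, the CD45 antigen used to gate blood cells out, was at a mean of 18.2 and 26.9 CPM and was not called. Aire, which drives many tissue-restricted genes in mTEChi, was at a mean of 1522 CPM in WT mTEChi and 13 CPM in WT mTEClo. The part of other cells, and of such genes, in the leukocyte integrin results was not tested.

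The lists of partner genes gave the following counts in WT mTEChi against WT mTEClo, where 42.8% of all genes were higher and 36.8% lower. Of 34 adhesion adaptors and kinases, the proteins that link integrin tails to actin, 9 were higher and 21 lower, with a median log2 difference of -0.72. The genes with the smallest adjusted p were Tns4 (-3.62, SE 0.10), Flna (-2.66, SE 0.10) and Bcar1 (-2.25, SE 0.08), which encode a tensin, filamin A and a Src substrate at focal adhesions. Of 6 hemidesmosome partners of the alpha6 beta4 receptor, 5 were lower and 1 higher. Krt14 (-2.87, SE 0.08) and Krt5 (-2.63, SE 0.10), the basal keratins, and the tetraspanin Cd151 (-2.17, SE 0.07) led the list, and the higher gene, named after its value was seen, was Col17a1 (0.89, SE 0.10), a transmembrane collagen. Of 19 basement membrane partners of laminin, 13 were lower and 3 higher, led by the laminin alpha5 receptor Bcam (-3.36, SE 0.07) and the collagens Col18a1 (-2.34, SE 0.07) and Col4a2 (-2.24, SE 0.07).

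The 3 higher basement membrane genes, named after their values were seen, were Nid1 (4.33, SE 0.49), Col4a3 (4.98) and Col15a1 (1.18). Nid1 encodes nidogen, which bridges laminin and collagen networks. Of 29 other integrin ligands, 14 were higher and 9 lower, shares near those of all genes, with a median of -0.02 beside 0.08. The leading genes were Cyr61 (-3.97, SE 0.11), Tgfb3 (-2.43, SE 0.08) and Madcam1 (7.71, SE 0.32), the last a ligand of the alpha4 beta7 receptor of lymphocytes. In KO the counts higher and lower were 9 and 22 for the adaptors, 1 and 5 for the hemidesmosome partners, 3 and 13 for the basement membrane partners and 11 and 10 for the other ligands, beside 43.2% and 37.2% of all genes.

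In cTEC against mTEChi, 3 of the 4 partner lists had a median difference above 0. In WT 19 of 34 adaptors were higher and 7 lower (median 0.57), 5 of 6 hemidesmosome partners were higher and 0 lower, and 13 of 19 basement membrane partners were higher and 1 lower (median 1.73). Over all genes 28.0% were higher and 36.5% lower, with a median of -0.24. The other integrin ligands lay near that median, with 12 of 29 higher, 9 lower and a median of -0.21 in WT, and 11 higher, 7 lower and a median of -0.26 in KO. Dab2, an endocytic adaptor of integrins, was at a mean of 70.1 CPM in WT cTEC and 4.73 CPM in WT mTEChi. Against mTEClo, 10 of 19 basement membrane partners were higher and 3 lower in WT cTEC, with a median of 0.73. Of these, voom kept 10 and 2. Over all genes 13.1% were higher and 14.4% lower, with a median of -0.01, and 18.0% were called by both tools. Of 34 adaptors 7 were higher and 3 lower, of 6 hemidesmosome partners 1 and 2, and of 29 other ligands 7 and 4. Their medians were -0.08, -0.08 and -0.11. In KO, 9 basement membrane partners were higher and 2 lower, beside 10.1% and 9.56% of genes. Of these partners voom kept 7 and 1, beside 10.3% of genes by both tools.

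In KO against WT, edgeR fitted on each population's own libraries called no laminin or integrin gene. In cTEC 0 of 36 members tested passed, and over all 16423 genes tested 0% did, with a lowest edgeR adjusted p of 0.0687. Psmb11, the targeted gene, was itself tested and not called, so the lack of calls in cTEC says little about the members. Before adjustment, 2104 genes had p under 0.05. Other fits gave calls there. edgeR fitted over all 16 libraries called 4700 genes and 8 members. That fit shares its estimate of the spread with the mTEC libraries, which vary less, so it can call cTEC genes without an effect. On the cTEC libraries alone, edgeR called 383 genes and 1 member without the filter on low counts. With a replicate block it called 718 and 1, Itgal in both cases. Of the other tools, voom called 56 genes, 1 member among them (Itgal), and DESeq2 called 851, with 3 members (Itgal, Itga7 and Itgb1). In mTEClo 0 of 36 members passed beside 0.00586% of 17073 genes. Before adjustment 2141 genes had p under 0.05, and 16 were called by voom, with no member, and 307 by DESeq2, with Itgb8. In mTEChi 0 of 37 passed beside 0.00510% of 19614 genes. Before adjustment 822 genes had p under 0.05, and 1 was called by voom, which is no member, and 6 by DESeq2, with Lamb3. The median standard error of a member's log2 difference was 0.34 in cTEC, 0.12 in mTEClo and 0.092 in mTEChi, so the cTEC comparison was the least precise. The difference between the KO effects in mTEChi and in mTEClo was called for 0 members, beside 0.0101% of genes.

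KO and WT libraries that did not overlap were counted as well. This was so for 10 of 36 members in cTEC (6 higher and 4 lower in KO), beside 45.2% of genes. It was so for 5 of 36 in mTEClo, beside 19.4%, and for 4 of 37 in mTEChi, beside 8.94%. Over all members tested, the KO differences on the log2 scale lay between -0.19 and 0.34 in mTEChi and between -0.35 and 0.90 in mTEClo.

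Itgal in cTEC came nearest to a call. Its level was 12.2 and 13.4 CPM in cTEC WT and 38.6 and 32.6 CPM in cTEC KO, without overlap. In mTEClo it was at 20.1, 20.2 and 18.7 CPM in WT and 18.0, 16.8 and 14.2 CPM in KO, and in mTEChi at 56.9 to 58.6 CPM in WT and 57.4 to 63.2 CPM in KO. The cTEC difference was 1.49 (SE 0.24, edgeR adjusted p 0.0855; voom adjusted p 0.024), and without cTEC KO library 1 it was 1.41 (adjusted p 0.00887) and without library 2 it was 1.57 (adjusted p 0.00429). As a result Itgal was below mTEClo in WT cTEC (-0.53, edgeR adjusted p 0.02, voom adjusted p 0.133, and -0.46 without WT cTEC library 1). That WT call was lost without WT mTEClo library 1 (-0.53, edgeR adjusted p 0.0615) and without library 2 (-0.52, edgeR adjusted p 0.0672). Itgal was above mTEClo in KO cTEC (1.23, edgeR adjusted p 0.000397, voom adjusted p 0.000132). Of the 37 members it was the only one that edgeR called in opposite directions in the genotypes, beside 52 of 17820 genes in this comparison. The WT side of this reversal was the weaker one. The KO libraries of cTEC also had dendritic cell and macrophage markers at 161 to 199 CPM in sum, beside 124 to 141 CPM in WT, and medullary epithelium markers at 1479 to 1763 CPM, beside 988 to 1014 CPM. B cell markers summed to 12.5 to 13.8 CPM in KO and 2.64 to 4.87 CPM in WT, with all 6 above 0 on the log2 scale (median 1.40) and none at 0 in every KO library. Of 14 thymocyte markers 12 had a difference above 0, with sums of 160 to 228 CPM in KO and 130 to 167 CPM in WT, which overlapped. edgeR called no gene of these 4 lists, and their part in the Itgal value was not tested.

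The test of the difference between KO effects, added after the data were seen, called Itgal in cTEC against both medullary populations. The cTEC effect exceeded the mTEClo effect by 1.76 (SE 0.20, edgeR adjusted p 0.00243; voom adjusted p 0.0177) and the mTEChi effect by 1.43 (SE 0.13, edgeR adjusted p 0.00105; voom adjusted p 0.0439). Of all genes 4.68% and 5.35% were called in these tests by edgeR, beside 3 of 37 members each. In the first the others were Itga7 and Itgb8, and in the second Itga7 and Itgb1; voom made none of those calls. Itga7 was at 0.459 and 0.283 CPM in WT cTEC and 2.17 and 5.81 CPM in KO cTEC. Itgb8 was at 5.47 and 5.85 CPM in WT cTEC and 16.1 and 8.28 CPM in KO cTEC, while in mTEClo KO libraries lay below WT (difference -0.32, adjusted p 0.22). Itgb1 was at 557 and 558 CPM in WT cTEC and 441 and 380 CPM in KO cTEC, a difference of -0.43.

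Among the laminins, Lamb3 in mTEChi had the steadiest genotype difference in level. It was at 50.9, 50.3 and 54.0 CPM in the WT and 63.2, 65.6 and 65.8 CPM in the KO libraries, without overlap, a log2 difference of 0.32 (SE 0.07, edgeR adjusted p 0.695). Its share of beta chain RPKM was 38.8% ± 0.221 in WT and 44.5% ± 0.986 in KO mTEChi (SD, n = 3 each). In cTEC the laminin differences between genotypes had a median of -0.11, and Lamb1 was at 904 and 760 CPM in WT and 717 and 774 CPM in KO, which overlapped.

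**Figure D5:**
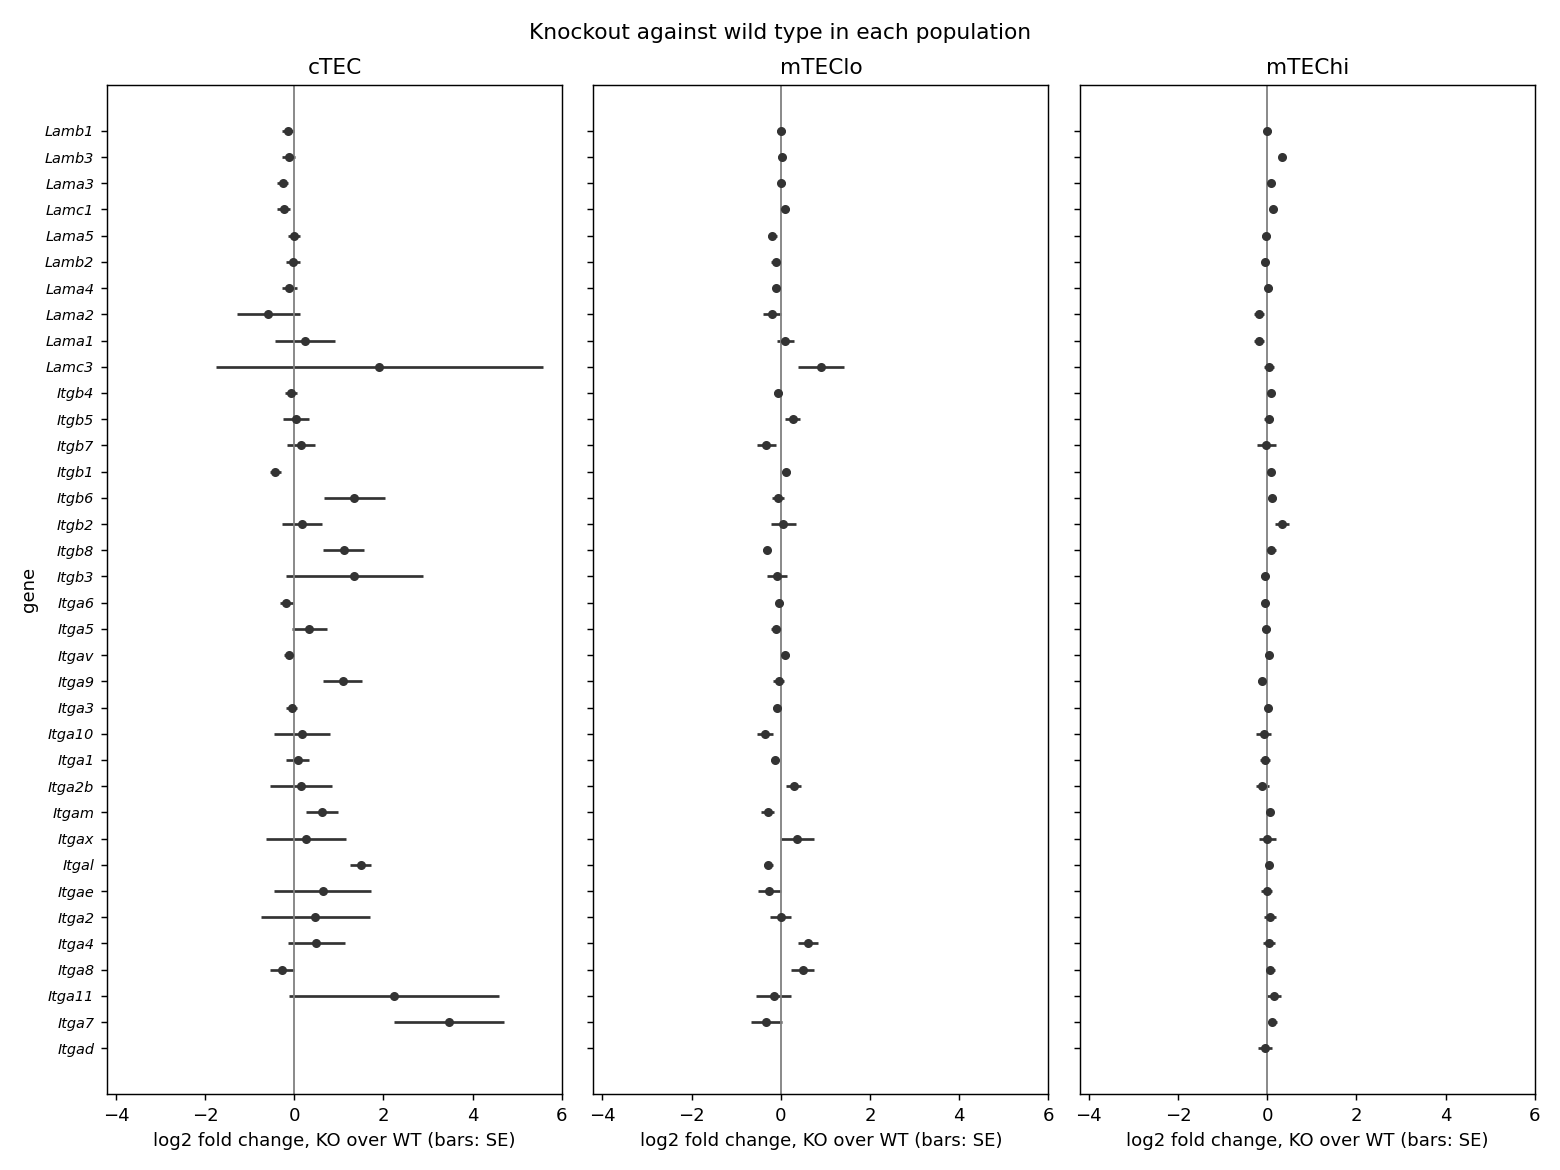
Log2 fold change of KO over WT for 36 members in cTEC (2 against 2 libraries), mTEClo and mTEChi (3 against 3 each), with bars of 1 SE; genes not tested have no point. The bars in cTEC, with a median SE of 0.34, are wider than in mTEClo and mTEChi, where nearly all points lie close to 0.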

How the data were processed

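RNA from 16 sorted samples was sequenced; each sample's group was taken from its title, genotype and source label, and columns were matched to titles. The authors' deposited counts are whole reads per gene, made with HTSeq 0.5.4p1 after CASAVA 1.8.2 on mm10, per the submitters' processing notes; the aligner and annotation are not given in the sources used here. The authors' deposited RPKM values are counts scaled by depth and length. Rows that name no gene were left out of library sizes: reads in no feature were 13.7% to 30.4% and ambiguous reads 0.541% to 0.887% of all reads.

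Each comparison was fitted on the libraries of the populations compared, with edgeR 4.0.16 (quasi-likelihood F test, TMM scaling, filterByExpr, Benjamini-Hochberg adjustment over all genes tested, threshold 0.05) in R 4.3.3. CPM used TMM scaling over all 16 libraries. Scripts were tested on simulated data. Those data had less spread between cTEC libraries than was found here, so error rates in cTEC were not checked. Alternatives were DESeq2 1.42.0 size factors, no filter, DESeq2's Wald test, voom (limma 3.58.1) with quality weights and a variance per population, edgeR over all 16 libraries, a replicate block, and leaving out each library. Members with a mean of at least 5 CPM in at least 1 group are described with their values, except 1 that is not reported here; of each partner list, up to 3 genes with the smallest adjusted p are named. Members and lists were chosen with earlier results of these data known. Floors, set at 3 counts, cover counting error only, whereas the SEs also carry the spread between libraries.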

Additional observations from a re-analysis of the deposited data

Results flagged for a closer look

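Differences between genotypes in cTEC were set against those in the medullary populations by a test of the difference itself. The test was added after the data were seen. A call by edgeR, or genotypes without overlap that lay opposite ways, flagged 8 values. For Itgal the KO effect in cTEC exceeded that in mTEClo by 1.76 (SE 0.20, edgeR adjusted p 0.00243; voom adjusted p 0.0177) and that in mTEChi by 1.43 (SE 0.13, edgeR adjusted p 0.00105; voom adjusted p 0.0439). The other values did not pass with voom. For Itga7, the laminin receptor chain that was high in mTEChi, the cTEC effect exceeded the mTEClo effect by 3.80 (SE 0.91, edgeR adjusted p 0.0452; voom adjusted p 0.359) and the mTEChi effect by 3.34 (SE 0.59, edgeR adjusted p 0.0151; voom adjusted p 0.459). For Itgb8 the cTEC effect exceeded the mTEClo effect by 1.42 (SE 0.30, edgeR adjusted p 0.0314; voom adjusted p 0.485). For Itgb1 the cTEC effect was lower than the mTEChi effect, with a difference of -0.54 (SE 0.10, edgeR adjusted p 0.0197; voom adjusted p 0.379). For Itga9 and Lamc1 the genotypes did not overlap and lay opposite ways in cTEC and mTEChi. Over all genes 45.2% did not overlap in cTEC and 8.94% in mTEChi. In mTEChi the gap for Itga9 was narrow, with 14.18 to 14.87 CPM in WT and 12.49 to 14.13 CPM in KO. Lamc1 was at 36.9 to 41.7 CPM in WT mTEChi and 43.2 to 44.8 CPM in KO mTEChi. The effects differed by 1.18 (SE 0.34, edgeR adjusted p 0.0869) and -0.39 (SE 0.12, edgeR adjusted p 0.117), which missed the threshold. All of these rest on 2 libraries per cTEC group.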

How the results depend on the processing

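Apart from the added tests of the KO effect in cTEC, no member's called difference changed sign under any alternative run. Those added tests were run with edgeR and voom alone. Among the members, WT cTEC against WT mTEClo gave 18 calls, with 9 by voom and 9 to 12 without 1 library. KO cTEC against KO mTEClo gave 11, with 7 by voom and 7 to 19 without 1 library, the 19 without cTEC KO library 1. KO against WT in cTEC gave 0, with 1 without the filter on low counts, 3 by DESeq2's Wald test, 1 by voom, 8 in the fit of all 16 libraries and 0 to 5 without 1 library (5 without cTEC KO library 1, 2 without cTEC KO library 2). KO against WT in mTEClo and in mTEChi gave 0 each, and 1 each by DESeq2. Leaving out 1 library gave 27 to 28 for WT cTEC against WT mTEChi (28 calls), 22 to 31 for KO cTEC against KO mTEChi (26), 35 to 36 for WT mTEChi against WT mTEClo (36), 33 to 35 for KO mTEChi against KO mTEClo (34), and 0 for the mTEC genotype comparisons and their difference. Over all groups, deviations of same-numbered libraries correlated at -0.224 to 0.257, so the numbers were not taken as pairs. In KO mTEClo and KO mTEChi alone the 3 correlations were positive (0.257, 0.0956 and 0.202) and each library correlated best with its own number, a hint from the data and not the design. With a replicate block the member counts were 8 for WT and 5 for KO cTEC against mTEClo, 22 and 18 for cTEC against mTEChi, 1 for KO against WT in cTEC (Itgal), and 36 and 34 for mTEChi against mTEClo. With every library kept, these counts over all genes differed from the main edgeR count by over 1.5 times. WT cTEC against mTEClo had 2755 (block) against 4904. In KO there were 2002 (voom), 1128 (block) and 5993 (all 16 libraries) against 3501. For cTEC against mTEChi the block gave 6428 against 12911 in WT and 5176 against 11910 in KO. KO against WT in cTEC had 383 (no filter), 718 (block), 56 (voom), 851 (DESeq2's Wald test) and 4700 (all 16 libraries) against 0. In mTEClo it had 21 (no filter), 16 (voom), 307 (DESeq2) and 0 (all 16 libraries) against 1. In mTEChi it had 6 (DESeq2) and 0 (all 16 libraries) against 1. The difference between those 2 KO effects had 15 (DESeq2) and 0 (voom, block and all 16 libraries) against 2. By CPM and by the authors' RPKM, 33 of 37 members were highest in the same group. With 2 libraries per cTEC group and a coefficient of variation of 0.652, genotype differences in cTEC are the least precise.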
